A study of Drosophila melanogaster with 3 samples.

Results

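Binding of dmrt11E, a DM-domain transcription factor, was examined at 6 genes of *Drosophila melanogaster*: u-shaped (ush), pannier (pnr), serpent (srp), grain (grn), GATAe and GATAd. They are 6 of 13968 annotated protein-coding genes, and 30 of the 6706 reproducible peaks of the experiment had a summit, the position of highest signal, in the body of 1 of these genes or within 10 kb of it. The genes were chosen by the ranks of their peaks, so the counts and ranks below describe them and carry no test. Of the 30 summits, 14 lay at ush, which included the peak of rank 8 in the genome, and no summit at the other 5 genes ranked better than 1417.

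GATA factors are zinc-finger proteins that bind a short element with GATA at its core. The protein made from ush is a multi-zinc-finger cofactor of the Friend of GATA family, which contacts a zinc finger of the GATA factor and can turn it from an activator into a repressor. In the fly embryo pnr patterns the dorsal ectoderm and helps to specify the heart, srp is needed for blood cells, fat body and endoderm, grn acts in the posterior spiracles and in neurons, and GATAe maintains the midgut. GATAd is a further member of the family.

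The chromatin came from whole embryos aged 2 to 10 h, of both sexes, of a transgenic line in which dmrt11E ends in a green fluorescent protein, and it was precipitated through that tag. All embryos formed 1 group, collected as 3 biological replicates of the same genotype and stage, and the labels do not say whether the native gene was still present. Peaks were listed for each replicate and for the 3 replicates pooled, with 30000 peaks in each list, and a stricter set was kept by its irreproducible discovery rate (IDR), a measure of agreement of ranks between replicates. This IDR set equals the 6706 strongest pooled peaks. The number of reads behind each list is unknown here, and no precipitation from untagged embryos was analysed here. A strong site in few cells and a weaker site in many cells cannot be told apart in whole embryos. Nothing beyond the replicate number says how the 3 collections were separated, so the spread between replicates is that of these 3 samples.

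Many of the windows of 101 bp centred on the summits were rich in A and T, and 4 chosen examples are printed to show this. Each is the plus strand of the dm6 assembly from the RefSeq genome, and capitals mark its longest run of A and T. The first belongs to the summit of rank 8 in ush, the next to its neighbour of rank 242, then follow the best summit of pnr and a summit just past the end of GATAd.
ush rank 8, chr2L:481030-481130: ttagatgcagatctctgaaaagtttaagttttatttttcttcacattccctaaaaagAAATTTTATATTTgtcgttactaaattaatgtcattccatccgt
ush rank 242, chr2L:480012-480112: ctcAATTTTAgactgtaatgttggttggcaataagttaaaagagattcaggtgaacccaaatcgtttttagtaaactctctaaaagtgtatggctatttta
pnr rank 2658, chr3R:16033920-16034020: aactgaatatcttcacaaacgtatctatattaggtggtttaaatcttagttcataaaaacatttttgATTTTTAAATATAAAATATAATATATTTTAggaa
GATAd rank 4105, chr2L:10339245-10339345: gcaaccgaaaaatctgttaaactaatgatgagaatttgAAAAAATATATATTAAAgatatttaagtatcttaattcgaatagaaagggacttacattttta
Their G+C content was 26.7%, 31.7%, 18.8% and 22.8% in that order, and the longest A/T runs were 13, 7, 30 and 17 bases. Not every summit was like them: the G+C content was 44.6% at the ush site of rank 1027 and 52.5% at that of rank 1973. Over the 30 summits the G+C content of this window had a median of 31.7% (quartiles 26.7 and 36.4%), against 41.1% in windows of the same width 500 bp to either side, and it was lower at the summit in 22 of 30 (73.3%). Over all 6706 IDR summits the medians were 29.7% at the summit and 44.1% in the flanks, and 84.6% of summits were lower. A dip in G+C at the summit was thus present both at these genes and over the whole set.

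**Figure D1:**
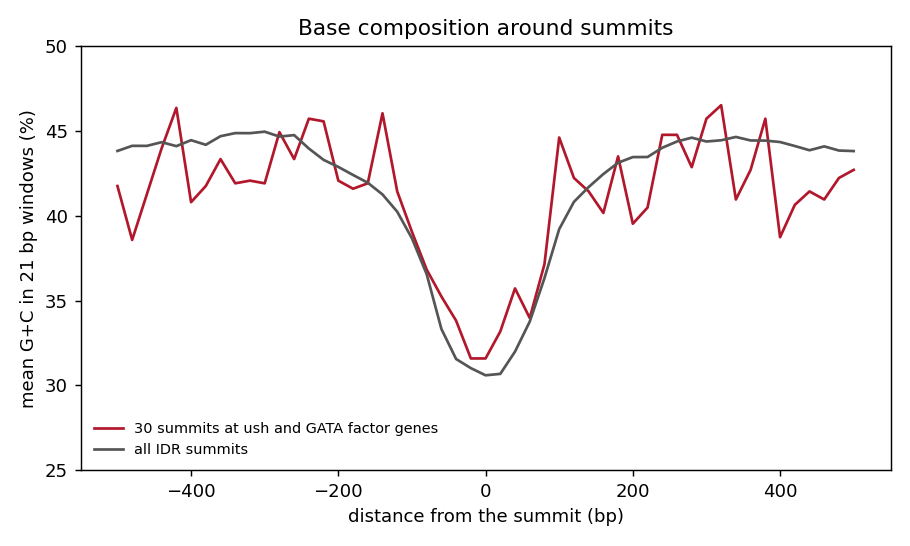
Mean G+C content (%, vertical axis from 25 to 50%) in 21 bp windows against distance from the summit (bp), for the 30 summits at ush and the GATA factor genes and for all 6706 IDR summits. Both lines are lowest at the summit, at 31.6% for the 30 summits and 30.6% for all IDR summits.

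The gene ush (FBgn0003963) lies on 2L at 476220 to 540560, plus strand, with 5 transcripts from 4 transcription start sites (TSSs). Its body and flanks held 14 IDR summits. Only 17 protein-coding genes, ush among them, had at least as many, which is 0.122% of all. Because the span is long, at 84341 bp, the count was also set against length: of the 203 genes with a span at least this long, 13 held as many summits or more, ush included. The density was 1.66 IDR summits per 10 kb at ush, higher than at 91.1% of genes, and the median gene had 0.468 (quartiles 0 and 0.962).

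The strongest site lay in the first intron of the long transcripts, 4860 bp downstream of the most upstream TSS. This peak spanned 480579 to 481317, had a pooled signal of 5457 and ranked 8. Its rank was 11, 13 and 6 in replicates 1, 2 and 3, with replicate signals of 1236, 1766 and 2456 on scales that differ between lists. It was within the best 13 peaks of every replicate, and it held 37.5% of the summed signal of the 14 sites. The neighbour at 480062, 1018 bp away, had a signal of 1870.1 and rank 242, with ranks of 266, 255 and 214 in the replicates. The neighbour's ranks lay close together. Those of the strongest site differed by 2.17-fold but all lay within the first 13 places, where a shift of few places makes a large factor. A second gene is nested here: cabut (cbt), a zinc-finger factor that acts in dorsal closure, lies inside this intron on the opposite strand at 476446 to 479688. The summit at 480062 was 374 bp upstream of the TSS of cbt and the strongest summit 1392 bp upstream of it, so the nearest annotated start to both summits was that of cbt.

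A second group of strong sites preceded an internal TSS of ush. These 4 summits, at 520835, 521508, 522119 and 522937, spanned 2102 bp, and the last was 529 bp upstream of that TSS. The first of them had a signal of 1709.6 and rank 293, and its ranks were 264, 281 and 313 in replicates 1, 2 and 3. The site at 522119 had IDR rank 697, and replicates 1, 2 and 3 placed it at 645, 796 and 652. The site at 522937 ranked 1154, and 932, 1348 and 1194 in the replicates. These 3 sites changed place little between replicates, whereas the summit at 521508, of IDR rank 4174, did not. It ranked 10986 in replicate 1, against 2692 and 3907 in replicates 2 and 3.

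Between these groups the long intron held further sites of intermediate rank. The summit at 510643 had a signal of 826.8 and rank 1027, and its ranks of 411, 944 and 2141 in replicates 1, 2 and 3 spread over 5.21-fold, the widest range among the 30. At 485885, rank 1973, the replicates also differed, with ranks of 949, 1679 and 4772. At 516229 (rank 1522) the ranks of 1669, 1400 and 1639 lay close together. The remaining intronic sites ranked 2307 at 512269 and 4463 at 493471. A further summit at 490284, rank 5356, was in an exon that is 5′ untranslated sequence in 1 of the transcripts and lay 551 bp upstream of a TSS shared with lncRNA:CR46258. With the sites near cbt and the group before the internal TSS, this gave 12 IDR summits in the body of ush, of which 11 were intronic.

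The other 2 IDR summits at ush lay upstream of it, at the start of CG4297. They had ranks of 6577 at 471354, 201 bp downstream of a TSS of CG4297, and 2635 at 472469, 269 bp upstream of another TSS of the same gene. The first was weak in every replicate, with ranks of 6370, 5047 and 7337.

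Every intronic summit of ush in the pooled list was also counted. There were 47, of which the 11 above were in the IDR set and 36 were not. The 36 ranked between 7770 and 29575 with a median of 19245, and 12 of them ranked 15000 or better. The authors' −log10 q-value was 3.49 at the best of the 36 and 0.254 at the last. In the whole pooled list 11618 of 30000 peaks had 2 or more, so the 36 include weak calls and are not a count of bound sites. Sites were sparse in parts of the gene: consecutive IDR summits were 611 to 17172 bp apart, with a median of 3187 bp (6392 bp over all IDR summits). The longest interval, from 493471 to 510643, held 9 pooled summits, the best of rank 7770 at 498420. The last 17623 bp of the gene, after 522937, held 10 pooled summits and no IDR summit, and the best of these ranked 8858 at 523673, 63 bp upstream of a further internal TSS of ush, downstream of the one that the group of 4 precedes. The map of ranks along ush shows these groups and gaps.

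**Figure D2:**
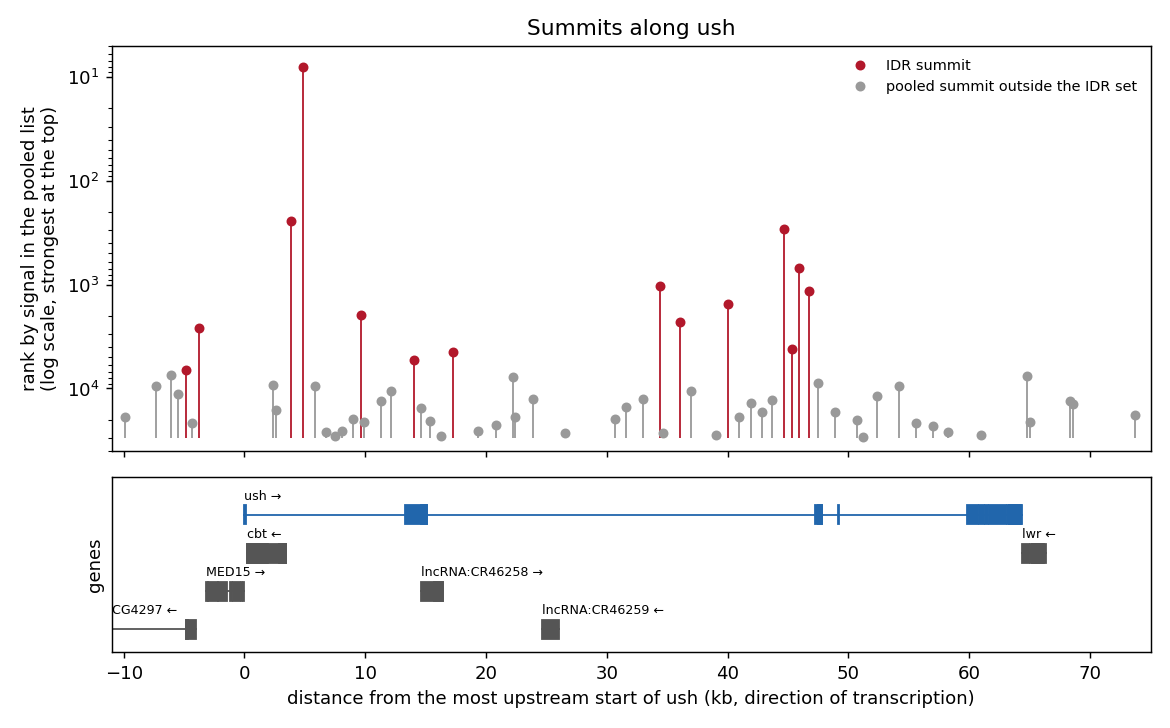
Upper panel, rank of each summit in the pooled list (log scale, strongest at the top) against distance in kb from the most upstream TSS of ush, for 14 IDR summits (red) and the other pooled summits (grey). Lower panel, annotated genes with exons as boxes, ush in blue, and arrows for strand; the strongest summit, rank 8, stands 4.86 kb into the gene, and 4 IDR summits stand together before an internal exon.

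On 3R, srp, GATAe and pnr lie in a row on the plus strand, 5019 bp apart between srp and GATAe and 6945 bp apart between GATAe and pnr. The stretch from 10 kb before srp to 10 kb past pnr held 35 pooled summits, of which 7 were in the IDR set. The distribution was uneven: no IDR summit lay in the body of srp or of GATAe, and 2 lay in that of pnr.

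At srp (FBgn0003507, 3R, 15986152 to 16004085) the strongest sites were upstream of the gene. The summit at 15984607, 1545 bp before the most upstream TSS, had a signal of 652.1 and rank 1417, the best among the 5 GATA factor genes. It ranked 1221, 1501 and 1486 in replicates 1, 2 and 3. The summit at 15983775, 2377 bp before the TSS, ranked 2207, with ranks of 1458, 1566 and 4124 in the replicates, so replicate 3 placed it lower than the others. Inside srp the best pooled summit ranked 6796, just outside the IDR set, and lay in an intron 549 bp upstream of an internal TSS. In replicate 3 a summit at 15993606 beside it ranked 5637, in replicate 2 it ranked 7203, and replicate 1 had no summit within 200 bp.

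Between srp and GATAe, 2 IDR summits were within 10 kb of both genes and were counted for each. The one at 16004230 lay 145 bp past the end of srp and 4875 bp upstream of GATAe (FBgn0038391, 3R, 16009105 to 16019133). Its IDR rank was 4138, and replicates 1, 2 and 3 placed it at 3044, 5332 and 4747. The one at 16006126, 2979 bp upstream of GATAe, ranked 4228, and 3410, 3621 and 7161 in the replicates. They lay beside or within lncRNA:CR42839 and were the whole count for GATAe, whose own body held 3 pooled summits and none in the IDR set.

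At pnr (FBgn0003117, 3R, 16026079 to 16041796) the 2 intronic sites lay on either side of an internal TSS. The summit at 16033970, whose sequence with the run of 30 A/T bases is printed above, was 616 bp upstream of that TSS. It had a signal of 396.5 and rank 2658, and ranks of 3097, 2969 and 2543 in replicates 1, 2 and 3. The summit at 16036230, 1644 bp downstream of the same TSS, ranked 5005, and 4940, 5978 and 4654 in the replicates. The most upstream TSS of pnr had a pooled summit 7 bp downstream of it, at 16026086, with rank 9388 and so outside the IDR set. A further IDR summit, at 16049522, was 7726 bp past the gene and within 500 bp of the TSSs of CG5013, of IKKbeta, a kinase of the immune NF-kappaB pathway, and of lncRNA:CR45212. It ranked 3913, and 6611, 4161 and 3574 in the replicates.

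**Figure D3:**
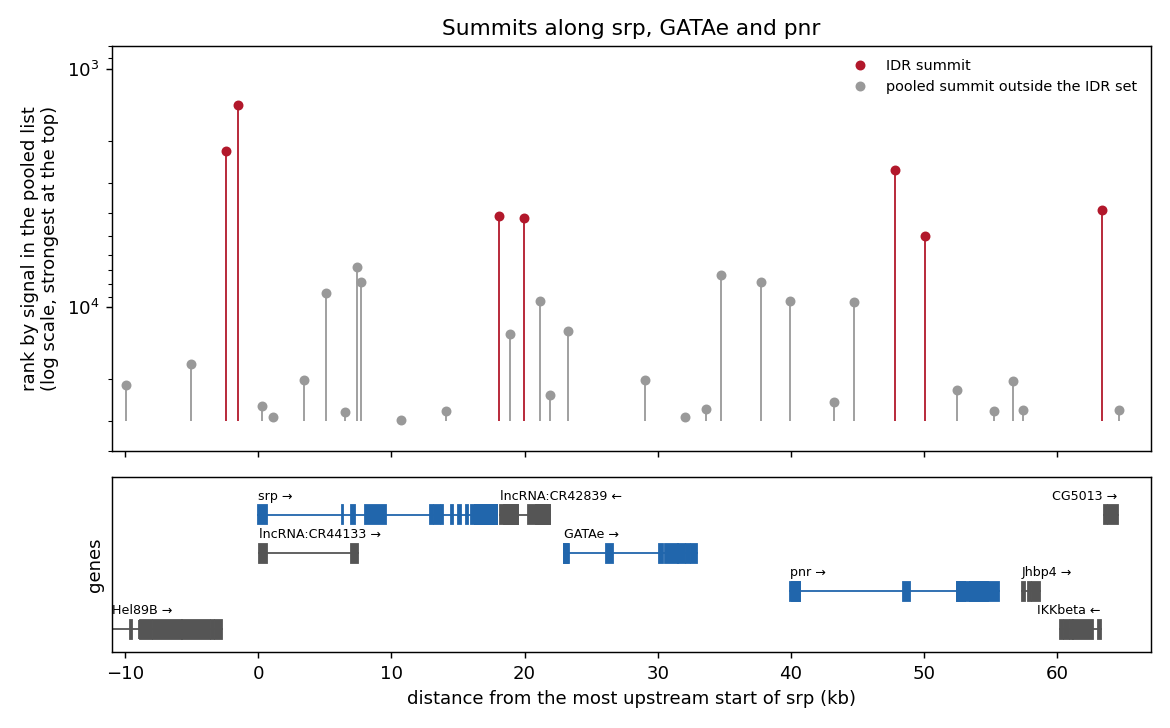
Upper panel, rank of each summit in the pooled list (log scale, strongest at the top) against distance in kb from the most upstream TSS of srp, for the 7 IDR summits (red) and the other pooled summits (grey). Lower panel, annotated genes with exons as boxes, srp, GATAe and pnr in blue, and arrows for strand; the best summit, rank 1417, stands before srp, and the bodies of srp and GATAe hold no red point.

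At grn (FBgn0001138, 3R, 8147368 to 8181444, minus strand, 1 annotated TSS) there were 6 IDR summits, and 482 genes, or 3.45%, had at least as many. Of the 573 genes with a span at least as long, 140 held as many or more, grn included. The density at grn was higher than at 78.2% of genes. Here 1 summit was at the gene's own start, at 8181526, 82 bp upstream of the TSS. Its IDR rank was 5268, and it stood at 3658, 4268 and 9183 in replicates 1, 2 and 3, the lowest place being in replicate 3. The best site, at 8171676 in the second intron, had a signal of 521.7 and rank 1929, and its ranks of 1668, 2173 and 2096 in the replicates were close together. The summit at 8180599 in the first intron, 845 bp from the TSS, ranked 2370, with ranks of 1140, 2435 and 4415. The other sites were a pair in intron 5 (ranks 3982 at 8154136 and 3902 at 8155920) and 1 site 8246 bp upstream of the gene (rank 2646 at 8189690). No pooled summit outside the IDR set ranked better than 10548 here, while the weakest IDR summit ranked 5268.

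At GATAd (FBgn0032223, 2L, 10333734 to 10339185) there were 3 IDR summits, of which 2 were at the starts of neighbouring genes. The intronic summit at 10335182 ranked 4985, and 4718, 2963 and 8027 in replicates 1, 2 and 3. The summit at 10339295 was 110 bp past the end of GATAd and 162 bp upstream of the TSS of SamDC, the S-adenosylmethionine decarboxylase of polyamine synthesis. It ranked 4105, and 4638, 6504 and 3194 in the replicates. The summit at 10341376, 240 bp upstream of the TSS of CG31715, ranked 6229, and 5797, 5185 and 9937. None of the 3 was among the 3353 strongest IDR peaks.

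Each of the 6 genes thus had at least 1 IDR summit in the body or within 10 kb, where 68.9% of all protein-coding genes did. An IDR summit inside the body was present at 4 of the 6 (ush, pnr, grn and GATAd), against 13% of all protein-coding genes, and a longer gene has more room for one. The number was 14 at ush, 6 at grn, 4 at srp, 3 at pnr, 3 at GATAd and 2 at GATAe, with a median of 1 over all genes (quartiles 0 and 3). Per 10 kb the order was ush at 1.66, GATAd at 1.18, grn at 1.11, srp at 1.05, pnr at 0.840 and GATAe at 0.666. Joined without double counting, the 6 spans covered 239515 bp with 1.25 IDR summits per 10 kb, against 0.488 over the chromosome arms. Past the 10 kb limit the next IDR summit was between 11713 bp (srp) and 27678 bp (ush) from the gene.

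**Figure D4:**
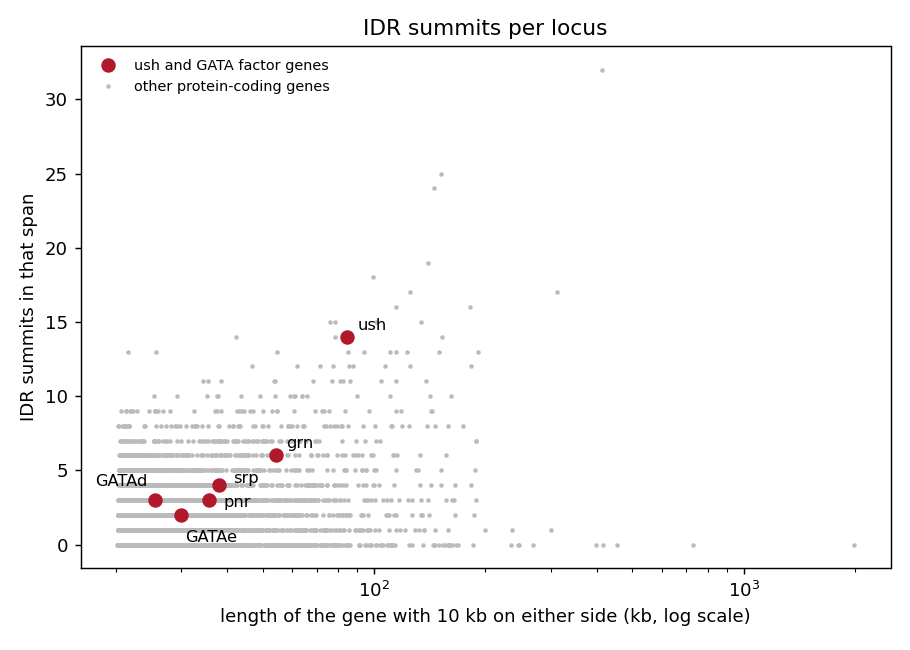
Number of IDR summits in the gene body or within 10 kb (vertical axis) against the length of that span (kb, log scale) for ush and the GATA factor genes (large red points, named) and all other protein-coding genes (small grey points). ush, with 14 summits, stands high for its length (13 of the 203 spans at least as long hold as many, its own included), and the other 5 red points, with 2 to 6 summits, stand within the bulk of genes.

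By rank, the 30 summits had a median of 2652, against 3353.5 for all IDR peaks, and 16 of 30 were among the 3353 strongest. The 14 sites at ush had a median rank of 1747.5 and the other 16 a median of 3947.5. Within the best 1000 were 4 of the 30, all at ush. By definition these places are held by 1000 of all 6706 IDR peaks, and the 3353 strongest are 3353 of 6706. Both counts of the 30 lay near these shares. By position, 18 were intronic, 8 upstream of the gene, 3 downstream and 1 in the 5′ untranslated exon of ush. The 2 summits shared by srp and GATAe are counted here as upstream of GATAe, and they also lie downstream of srp. Within 500 bp of any annotated TSS lay 7 of the 30, and in 1 case, at grn, it was the TSS of the GATA factor gene itself. No counts by position over all IDR summits are set beside these, so they describe the 30 alone.

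The replicates were next compared site by site. Each of the 30 IDR summits had a replicate summit within 200 bp in all 3 replicates, as had 6479 of all 6706 IDR summits (96.6%). The median distance between the summits was 15, 11 and 13.5 bp in replicates 1, 2 and 3, and the largest was 132 bp. Ranked 6706 or better in every replicate were 23 of 30 (76.7%), against 66.1% of all IDR summits. The other 7 were at that rank in 2 replicates. In replicates 1, 2 and 3, 29, 29 and 25 of the 30 were ranked 6706 or better, against 80.2%, 88.1% and 87.5% of all IDR summits. The median rank of the 30 was 2650.5, 2867.5 and 3740.5 in the replicates, against 3372, 3331 and 3339.5 over all IDR summits. In replicates 1 and 2 the 30 thus had a stronger median than the whole set, and in replicate 3 a weaker one. With a reciprocal overlap of 50% as the match, 16 of 30 (53.3%) were found among the top peaks of every replicate, against 46.8% of all IDR peaks. These shares rest on the ranks that chose the genes and are a description. The commonest replicate widths were 364, 384 and 400 bp. Of the 30 IDR peaks, 5 were narrower than 200 bp, as were 1260 of all 6706. The part of peak width in this second measure was not tested.

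The best and worst rank of a site in the 3 replicates differed by a median factor of 1.67 over the 30, and by 1.45 over the 14 at ush, and 12 of the 30 differed by more than a factor of 2. No such factors over all IDR summits are set beside these, so they describe the 30 alone. Across the 14 sites at ush, Spearman's rho between replicate ranks was 0.916 for replicates 1 and 2, 0.855 for replicates 1 and 3 and 0.912 for replicates 2 and 3. Across all 30 the values were 0.799, 0.669 and 0.736. These are correlations across sites that share libraries and 1 control, and are given as descriptions.

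**Figure D5:**
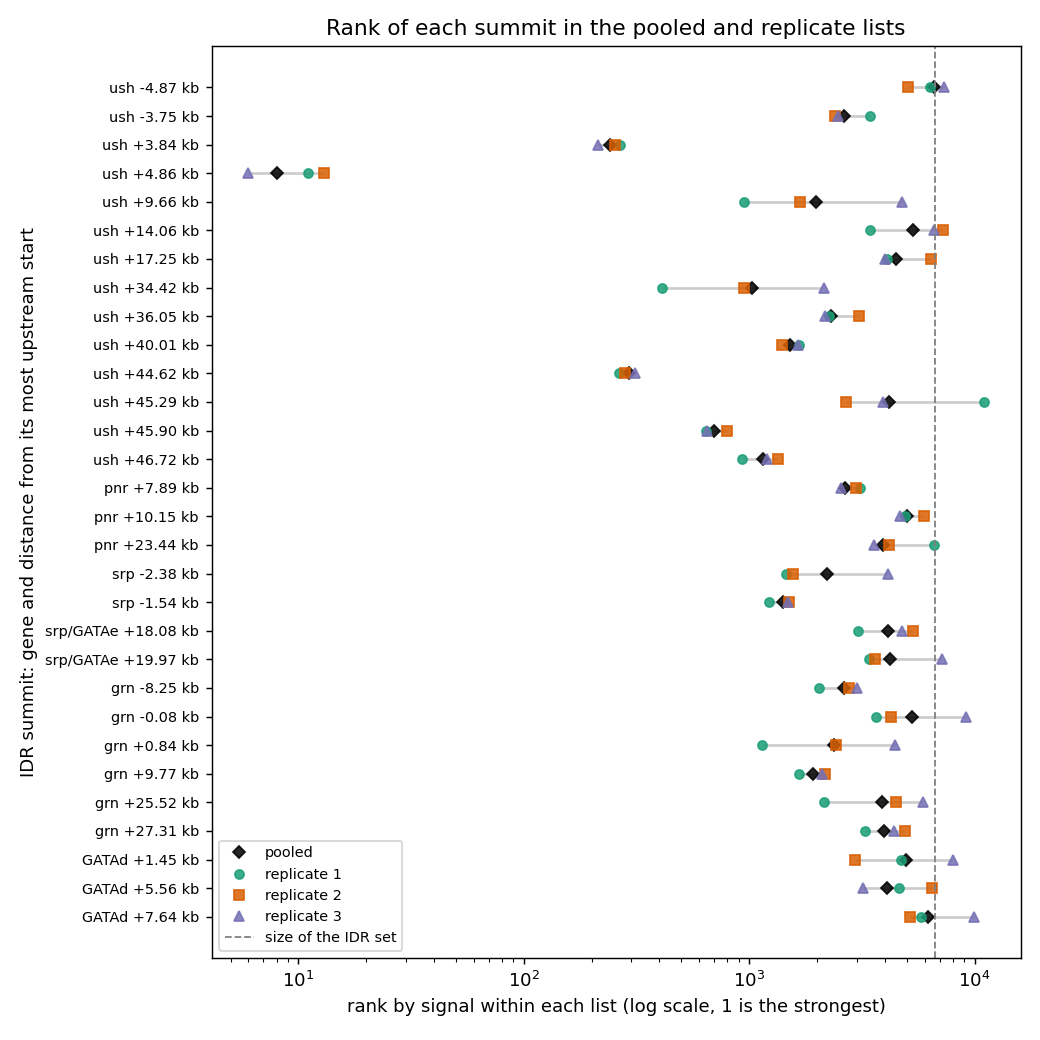
Rank by signal (log scale, 1 is the strongest) of each of the 30 IDR summits in the pooled list (black diamonds) and in replicates 1 (green circles), 2 (orange squares) and 3 (violet triangles), one line per summit, named by gene and distance in kb from its most upstream TSS. The dashed line marks rank 6706; the strongest ush summit holds ranks 6 to 13, and 7 summits have 1 replicate past the dashed line.

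A few sites ranked 6706 or better in a replicate and had no IDR summit within 200 bp. At ush these included 523669, 67 bp upstream of the same further internal TSS, with ranks of 6097, 7603 and 15876 in replicates 1, 2 and 3, and 498410 in the intron, with ranks of 7354, 20830 and 5480. Between GATAe and pnr, a site at 16020907, 5172 bp upstream of pnr, ranked 27455, 6150 and 6841. At GATAd the TSS itself had a replicate 1 summit of rank 5224, 27 bp downstream, which ranked 11316 in replicate 2 and had no counterpart within 200 bp in replicate 3. Each of these 4 sites was ranked 6706 or better in 1 replicate only. A site upstream of ush, at 470111 in replicate 1 and 470103 in replicate 2, was so ranked in 2 replicates, with ranks of 5977, 5600 and 14041 in replicates 1, 2 and 3.

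Letters of known elements were then searched within 50 bp of each summit on both strands. A match describes the letters and not a bound site, and the intervals cover counting error only. The GATA element, searched as the letters GATA after an A or T and before an A or G, was present at 9 of 30 summits (30%, exact 95% interval 14.7 to 49.4%), against 24.8% of all IDR summits. Of these, 5 were at ush, 2 at grn, 1 at srp and 1 at GATAd. At 7 of the 9 summits the centre of a match was within 20 bp of the summit. Within 25 bp the share was 8 of 30 (26.7%, interval 12.3 to 45.9%), against 13.1% of all IDR summits. Within 100 bp it was 13 of 30 (43.3%, interval 25.5 to 62.6%), against 40.9%, so the gap to all IDR summits depended on the window. The following windows show the matches in capitals, on the plus strand of dm6 from the RefSeq genome, at the best site of srp, in the first intron of grn and at 4 sites of ush.
srp rank 1417, chr3R:15984557-15984657: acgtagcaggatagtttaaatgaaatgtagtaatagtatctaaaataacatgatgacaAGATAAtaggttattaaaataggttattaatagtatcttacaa
grn rank 2370, chr3R:8180549-8180649: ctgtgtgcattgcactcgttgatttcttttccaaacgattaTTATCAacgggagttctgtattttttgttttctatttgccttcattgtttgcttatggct
ush rank 293, chr2L:520785-520885: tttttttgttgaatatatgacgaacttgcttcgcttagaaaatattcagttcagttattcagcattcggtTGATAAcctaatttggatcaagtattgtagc
ush rank 697, chr2L:522069-522169: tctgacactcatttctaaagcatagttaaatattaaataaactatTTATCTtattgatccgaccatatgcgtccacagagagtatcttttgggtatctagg
ush rank 1027, chr2L:510593-510693: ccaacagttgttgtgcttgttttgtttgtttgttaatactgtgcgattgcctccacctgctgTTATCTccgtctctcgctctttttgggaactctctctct
ush rank 4463, chr2L:493421-493521: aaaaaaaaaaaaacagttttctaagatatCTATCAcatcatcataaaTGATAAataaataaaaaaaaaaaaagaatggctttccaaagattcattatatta
The site at 493471 held 2 matches, with centres 19 and 1 bp from the summit, and had the lowest G+C content of the 30, at 17.8%. The strongest summit of ush and its neighbour held none in this window.

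The core bound by DM-domain factors, ACAATGT on either strand, was present at 2 of 30 summits (6.67%, exact 95% interval 0.818 to 22.1%), against 1.95% of all IDR summits. Both were intronic sites of ush, at 485885 and in the group before the internal TSS at 522937, with the core 16 and 39 bp from the summit. Capitals mark the core in these windows, again the plus strand of dm6 from the RefSeq genome.
ush rank 1973, chr2L:485835-485935: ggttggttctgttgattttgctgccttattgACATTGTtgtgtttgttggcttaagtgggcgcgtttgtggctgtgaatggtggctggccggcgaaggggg
ush rank 1154, chr2L:522887-522987: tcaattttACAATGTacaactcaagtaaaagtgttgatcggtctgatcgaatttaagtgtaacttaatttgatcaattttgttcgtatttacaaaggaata
The first of these windows was also among the richer in G and C, at 52.5%. The same core with a free middle base, ACANTGT, added no further summit here and was present at 3.36% of all IDR summits. Within 25 bp of the summit, ACAATGT was at 1 of 30 (3.33%), against 0.92% of all IDR summits. Within 100 bp it was at 2 of 30 (6.67%), against 3.89%, so the gap depended on the window here too.

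Other elements were found at few of the 30 summits. The GAGA factor letters GAGAG were at 4 (13.3%, against 6.95% of all IDR summits) and any E-box, CANNTG, at 10 (33.3%, against 32.1%). The E-boxes bound by Twist, with TA or CA between CA and TG, were at 1 (3.33%, against 7.19%). The T-box letters AGGTGT were at 2 (6.67%, against 2.92%), the Zelda letters CAGGTA at 1 in ush (3.33%, against 1.94%) and the Grainyhead letters AACCNGTT at 1, the start of grn (3.33%, against 1.03%). The repeat CACACAC was at 2 (6.67%, against 1.92%) and a run of AAAAAAA at 2 (6.67%, against 13.3%). None of the 30 held the Tinman letters CACTTGA (1.52% of all IDR summits), the DREF letters TATCGATA (1.19%) or the M1BP letters GGTCACAC (0.597%), and 0 of 30 allows a share of up to 11.6%. Intervals of the 30 are wide at this number of summits.

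The genes that work with GATA factors were read from a list of 45: 17 partners and cofactors in heart, blood and ectoderm, 10 genes of the signals that set pnr and ush expression, and 18 targets. An IDR summit was in the body or within 10 kb of 41 of 45 (91.1%, beside the 68.9% of all protein-coding genes), namely 17 of 17 partners, 10 of 10 signal genes and 14 of 18 targets. The list was chosen with earlier results of these data known, so the shares in this paragraph are a description and carry no test. The listed genes also had longer spans, with a median of 29.1 kb against 22.2 kb over all protein-coding genes. The part of length in these shares was not tested. The median number was 3, and 17 of the 45 (37.8%, against 21.0% of all genes) had a summit among the best 1000. The 5 genes with the best summits were Mef2, a muscle transcription factor (rank 41), zen, the homeobox gene of the amnioserosa (rank 43), osa, a subunit of the Brahma remodelling complex (rank 173), brk, the repressor of Dpp targets (rank 207), and crq, a scavenger receptor of macrophages (rank 261). All of these ranked below the strongest site of ush. The 4 genes without an IDR summit were sc, He, hkb and Mes2, all listed as targets.

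Among 1052 protein-coding genes with an intronic IDR summit more than 500 bp from any TSS, those most like ush in the ranks of that summit over 3 replicates were CG11050, Trl and Lk6. CG11050 ranked 13, 11 and 28 in replicates 1, 2 and 3, Trl, the gene of the GAGA factor, 36, 26 and 18, and Lk6, a protein kinase gene, 17, 18 and 38. The distances from ush were 0.677, 0.764 and 0.836, as the Euclidean distance of log10 ranks. These 3 genes had 2, 4 and 4 IDR summits in the body or within 10 kb, against the 14 of ush. Span length differs, with 33.5 kb at Lk6 and 84341 bp at ush, and its part in these counts was not tested. Further down the same order Tlk, at a distance of 1.096, had 10 IDR summits, all in its body.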

How the data were processed

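The 3 replicates and their pool were deposited as peak lists on dm6. Per the file headers, peaks were called for each replicate and for the pool against 1 shared control, and the IDR set was made from these lists. Which aligner and peak caller were used is not given in the sources used here. The signal value and the q-value as −log10 are the authors' own, and the deposited summit offset gave each summit's position. Peaks were ranked by signal within a list. The −log10 q-value of the authors was used only to describe lists and the pooled intronic summits of ush: 11618 pooled peaks had 2 or more. The lists give no read depth, so precision comes from the replicates.

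The 6 genes, the list of 45 genes and the motifs were chosen with earlier results of these data known. Genes and TSSs follow Ensembl release 115 (BDGP6.54), and sequence follows the RefSeq genome of the same assembly. The list's symbols all matched, 1 of them through a synonym. A summit belonged to a gene when in its body or within 10 kb. A replicate match was a summit within 200 bp, or a reciprocal overlap of 50% with a peak ranked 6706 or better. Named were the 6 genes with every IDR summit, other genes with a TSS within 500 bp of one, 5 listed genes and the 3 genes most like ush. The few pooled or replicate sites described outside the IDR set were chosen after their values were seen. So were lncRNA:CR46258, lncRNA:CR42839, Tlk and the 4 listed genes with no summit. No test was made, since there was 1 group. Alternatives changed the window, the IDR set, the match and the motif width. The procedures were tested on simulated data. Python 3.11.15, numpy 2.4.6, scipy 1.17.1, pandas 2.3.3 and matplotlib 3.10.9 were used.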

Additional observations from a re-analysis of the deposited data

How the results depend on the processing

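Of 73 alternatives, 61 left the value within the set limits and 12 moved it. The values are counts, densities, shares and ranks, which have no direction to reverse. The number of IDR summits at the 6 genes was 30 in the full set and 16 among the 3353 strongest IDR peaks, 23, 28 and 36 with windows of 2, 5 and 20 kb, and 17 to 23 when 1 replicate was left out and support was asked of both others by a reciprocal overlap (17 without replicate 1 or 2, 23 without replicate 3). The density was then 0.668 per 10 kb among the strongest and 0.710 to 0.960 with 1 replicate left out. These sets are smaller by construction, and the leave-one-out sets held 3514 to 4164 peaks. Support by a summit within 200 bp, chosen after seeing the data, gave 24 to 28 summits and 1.00 to 1.17 per 10 kb. Between 4 and 6 of the genes kept an IDR summit, and ush kept 8 to 11 intronic ones.

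The share of the 30 peaks matched in every replicate was 53.3% under a reciprocal overlap of 50%. It was 76.7% with any overlap of 1 bp, 16.7% with 75%, 73.3% with all replicate peaks, 56.7 to 76.7% with 1 replicate left out, and 76.7% with summits within 200 bp. The share was 56.7% without replicate 1 or 2 and 76.7% without replicate 3. The best rank at ush was 8 in the IDR set and 13 in replicate 2, with 11 and 6 in replicates 1 and 3. No paired analysis was possible because there was 1 group. Depth is unknown, and with 30 summits the shares have wide intervals.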
